A study of Mus musculus with 4 samples.

Results

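The genes for the proteins of the mitochondrial ribosome were followed in epithelial cells of the mouse stomach corpus, sorted by a reporter of Iqgap3. All rows of the deposited table whose symbol is Mrps or Mrpl with a number and at most a letter from a to c were taken. This gave 78 of 55335 rows, with 29 symbols of the small-subunit series (Mrps) and 49 of the large-subunit series (Mrpl). The rule reads names, not values, although the gene family was proposed with results of these data known.

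All 4 libraries came from C57BL/6 mice carrying Iqgap3-2A-tdTomato, an allele that makes the red protein tdTomato together with the scaffold protein Iqgap3, at an age of 6 to 8 weeks. Living cells with the epithelial surface protein EpCAM were sorted from dissociated gastric units into a fraction bright for the reporter (IQ3pos) and one dim or dark for it (IQ3neg). IQ3pos_1909A and IQ3neg_1909B are pools of 3 mice each, and IQ3pos_1910A and IQ3neg_1910B are pools of 4 mice each. Every mouse carried the reporter, the labels name no treatment, and neither fraction was sorted for a single cell type. RNA was amplified and sequenced by SMART-Seq2, which copies whole transcripts from small amounts of RNA. Values are CPM, reads of a gene per 1000000 reads assigned to genes.

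The mitochondrial ribosome translates the few messenger RNAs that mitochondrial DNA encodes, all of them for subunits of the respiratory chain and the ATP synthase. Its ribosomal RNAs come from mitochondrial DNA, whereas its proteins are made from nuclear genes in the cytosol and imported. The small subunit reads the messenger and the large subunit joins the amino acids. In the stomach corpus the acid-secreting parietal cell is known for its dense mitochondria.

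Promoter stretches of 6 members are shown first, to set motif matches of several kinds beside a member without any. They are RefSeq sequences on GRCm38.p6, 5′ to 3′ on the strand of the gene, and each covers the 70 bases before the annotated start except that of Mrpl42. Mrpl12 (chr11:120484567-120484636, plus strand) had the largest difference of all members and no match to any motif searched in its promoter. Mrps22 (chr9:98601680-98601749, minus strand) and Mrpl34 (chr8:71464856-71464925, plus strand) were among the 8 largest. Mrpl9 (chr3:94443266-94443335, plus strand) had the smallest difference, and Mrpl58 (chr11:115403682-115403751, plus strand), which lies inside the range, is shown for an ETS match close to the start. For Mrpl42 (chr10:95501904-95501931, minus strand) the stretch runs from base 19 to base 46 after the start. Capitals mark exact matches to CCGGAAG (the core of sites for ETS factors), CATGCGC (from sites of NRF1) and AAGATGGC (YY1), on either strand. In Mrpl9 NRF1 matches on both strands overlap and form a single run of capitals.
Mrpl12: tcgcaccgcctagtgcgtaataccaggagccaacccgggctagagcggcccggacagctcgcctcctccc
Mrps22: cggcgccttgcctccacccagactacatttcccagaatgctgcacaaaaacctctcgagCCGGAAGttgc
Mrpl34: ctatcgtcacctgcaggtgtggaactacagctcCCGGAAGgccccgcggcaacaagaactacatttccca
Mrpl58: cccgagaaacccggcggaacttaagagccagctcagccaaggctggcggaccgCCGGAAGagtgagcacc
Mrpl9: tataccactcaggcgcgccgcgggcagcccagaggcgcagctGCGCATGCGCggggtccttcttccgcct
Mrpl42: gattgaagcAAGATGGCgagcgcgcggt

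Depth ran from 90714929 to 418401262 reads in genes per library, and the lowest count of any tested member in any library was 111 reads, so counting error was small. The 20 most abundant genes held 25.3% and 18.5% of the reads in IQ3pos_1909A and IQ3pos_1910A, against 63.4% and 57.9% in IQ3neg_1909B and IQ3neg_1910B. With so many IQ3neg reads in a few genes, the median of all 13019 tested genes stood 0.68 higher in IQ3pos on the log2(CPM + 1) scale. After TMM scaling, which sets libraries on the bulk of their genes, that median was 0.04. Values on log2(CPM + 1) should be read against that median of 0.68, and those on the TMM scale against 0.04. Epcam, which encodes the sorted surface protein, had 473 and 517 CPM in IQ3pos and 205 and 267 CPM in IQ3neg. The sorting gene itself was low throughout. Iqgap3 had 0.220 CPM (20 reads) in IQ3pos_1909A and 9.32 CPM in IQ3pos_1910A, against 0.0435 CPM (5 reads) in IQ3neg_1909B and 0.452 CPM in IQ3neg_1910B. The library labelled IQ3pos_1909A thus had less Iqgap3 than IQ3neg_1910B, and the main counts below are also given without it.

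Transcripts for mitochondrial ribosomal proteins made up a larger part of the IQ3pos reads. Their summed level was 7980 and 8668 CPM in IQ3pos_1909A and IQ3pos_1910A, against 2497 and 2744 CPM in IQ3neg_1909B and IQ3neg_1910B. Both IQ3pos sums lay far above both IQ3neg sums. The group means were 8324 ± 487 CPM in IQ3pos and 2620 ± 175 CPM in IQ3neg (SD, n = 2 each), a 3.18-fold difference. An exact two-sided permutation test gave p = 0.333, the smallest that 2 against 2 libraries can give. On TMM-scaled CPM the sums were 6336 and 6413 in IQ3pos against 3635 and 3210 in IQ3neg, a 1.86-fold difference with the same p. In a bulk sample, fewer cells of a type and less RNA per cell cannot be told apart.

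**Figure D1:**
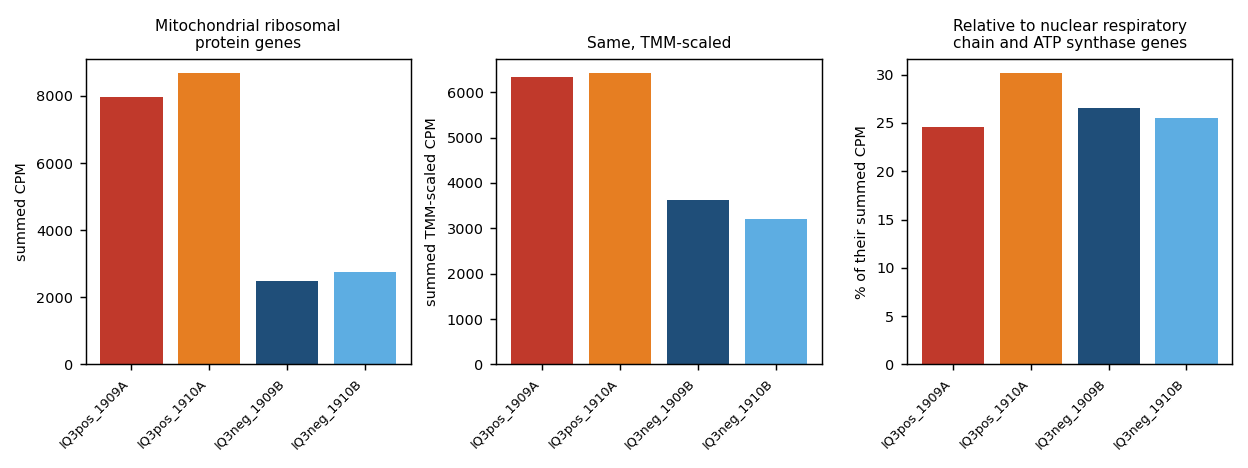
Summed level of the 78 mitochondrial ribosomal protein genes per library. The left panel gives CPM, the middle panel TMM-scaled CPM, and the right panel the sum as a percentage of the summed CPM of nuclear respiratory chain and ATP synthase genes. Red and orange bars are IQ3pos_1909A and IQ3pos_1910A, dark and light blue bars IQ3neg_1909B and IQ3neg_1910B. The IQ3pos bars are taller in the left and middle panels, and the right panel runs from 24.6% to 30.1% with IQ3neg between the IQ3pos bars.

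Nearly all members took part in this difference. Of the 77 members with a mean of at least 1 CPM, 71 had both IQ3pos libraries above both IQ3neg libraries and 0 had both below, whereas 40.9% of all tested genes were higher and 14.2% lower in this way. On TMM-scaled CPM, 57 of the 77 were higher in both and 0 lower, against 24.7% and 23.0% of all tested genes. With the 20 most abundant genes taken out before scaling, 45 were higher in both, against 19.3% of genes (26.9% were lower). How many members were lower in both was not counted there, and the differences of 9 of the 77 were below 0. Without IQ3pos_1909A, all 77 were above both IQ3neg libraries on CPM, where 60.0% of tested genes were, and 68 on TMM-scaled CPM, where 40.8% were.

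The median difference of the 77 members was 1.57 on the log2(CPM + 1) scale, with quartiles of 1.28 and 1.86 and a range of 0.28 to 2.71. Set against the median of all tested genes, it was 0.90 higher. On TMM-scaled CPM the median was 0.81, and 72 of the 77 differences were above 0, against 51.2% of all tested genes. The median level of a member was 73.0 CPM in IQ3pos and 26.0 CPM in IQ3neg. A fold of group means of at least 2 was seen in 69 members, where 46.3% of all tested genes had one, and the median fold was 3.01.

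No single member passed the main test. With limma on log2(CPM + 1) and Benjamini-Hochberg adjustment over all 13019 genes, 0 of 77 members passed at 0.05, and 0.0% of all tested genes did. At an unadjusted p under 0.05, 53 members were higher and 0 lower, against 18.2% and 4.98% of all tested genes. On TMM-scaled CPM limma called 0 members, against 0.0461% of genes called higher, and at an unadjusted p under 0.05 the counts were 20 higher and 0 lower, against 7.63% and 8.32%. The edgeR quasi-likelihood test on the recovered reads called 0 members, against 0.0535% of genes called higher. At an unadjusted p under 0.05 it had 13 members higher, where 5.29% of genes were higher and 10.8% lower. These edgeR shares are of the 16831 genes kept by its own filter, not of the 13019. DESeq2 on the same reads called 7 members higher, Mrpl42, Mrpl12, Mrpl21, Mrpl45, Mrps10, Mrps25 and Mrpl55, against 5.45% of genes called higher. Each library is a pool of mice, so these p-values rest on how far pools differ, and that spread may be partly technical.

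**Figure D2:**
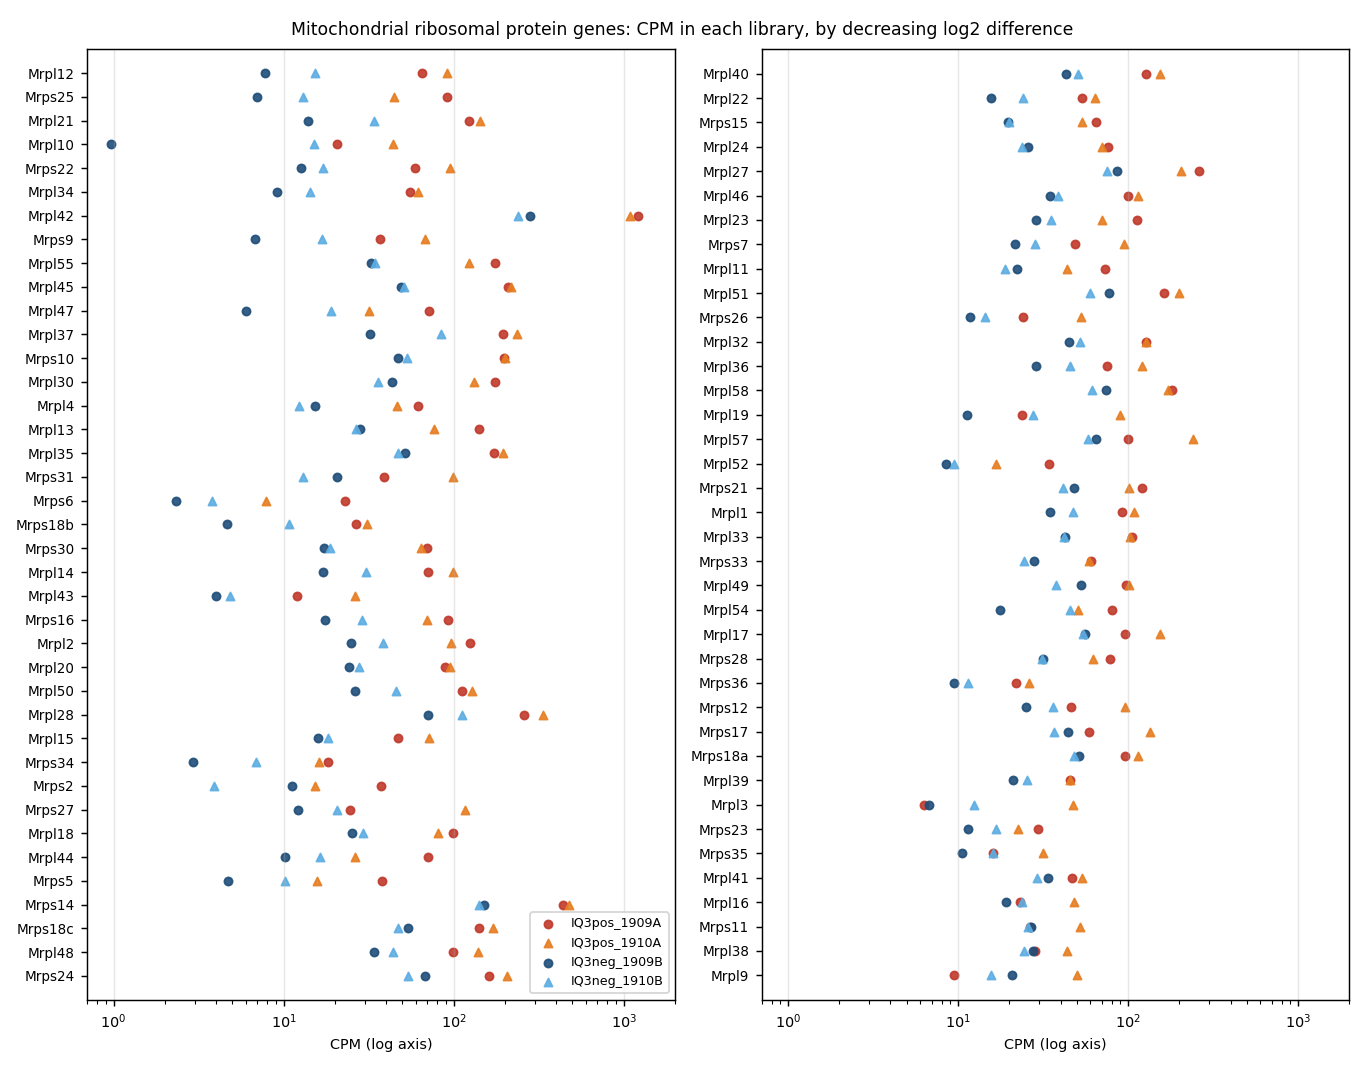
CPM of each of the 77 tested members in each library, on a log axis, ordered from the largest log2 difference (top left, Mrpl12) to the smallest (bottom right, Mrpl9). Red circles are IQ3pos_1909A, orange triangles IQ3pos_1910A, dark blue circles IQ3neg_1909B and light blue triangles IQ3neg_1910B. Red and orange lie right of both blues in 71 rows, and Mrpl42 stands apart at 1211 and 1085 CPM in IQ3pos against 279 and 240 CPM in IQ3neg.

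In the small subunit, the proteins that are placed there by structure are 26 of the members. Of these, 24 were higher in both IQ3pos libraries on CPM and 18 on TMM-scaled CPM, against 40.9% and 24.7% of all tested genes. The median difference of the 26 members was 1.63 on log2(CPM + 1) and 0.86 on the TMM scale. Mrps14, a homolog of bacterial S14 in the head of the subunit, was the most abundant in CPM, with 438 and 479 CPM in IQ3pos and 150 and 141 CPM in IQ3neg. Its difference was 1.65 ± 0.26 (SE, limma adjusted p = 0.0659), and 0.88 on the TMM scale. Mrps10, a homolog of bacterial S10, had 198 and 200 CPM in IQ3pos and 47.0 and 53.1 CPM in IQ3neg, a difference of 1.97 ± 0.32 (SE, limma adjusted p = 0.0659), and 1.21 on the TMM scale. The libraries of a fraction lay close together for these genes, and the fractions did not overlap.

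Mrps25, a subunit without a bacterial counterpart, had 91.1 and 44.8 CPM in IQ3pos and 6.97 and 13.1 CPM in IQ3neg. Mrps22, also specific to the mitochondrial ribosome, had 58.9 and 95.2 CPM in IQ3pos and 12.7 and 17.0 CPM in IQ3neg. Mrps9, a homolog of bacterial S9, had 36.7 and 68.2 CPM in IQ3pos and 6.82 and 16.9 CPM in IQ3neg. In all of them the lower IQ3pos library was still above the higher IQ3neg one, although the IQ3pos libraries differed from each other. The differences were 2.62 for Mrps25, 2.27 for Mrps22 and 2.11 for Mrps9 on log2(CPM + 1), and 1.89, 1.53 and 1.39 on the TMM scale.

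Some small-subunit genes showed little difference. Mrps11, a homolog of bacterial S11, had 26.5 and 52.1 CPM in IQ3pos and 27.0 and 25.7 CPM in IQ3neg. Mrps35 had 16.0 and 31.7 CPM in IQ3pos and 10.6 and 16.0 CPM in IQ3neg. In both genes IQ3pos_1910A was the high library and IQ3pos_1909A lay among the IQ3neg libraries. Mrps23 had 29.5 and 22.5 CPM in IQ3pos and 11.4 and 16.6 CPM in IQ3neg, without overlap on CPM and with overlap after TMM scaling. On log2(CPM + 1) their differences were 0.48, 0.75 and 0.86, and on the TMM scale -0.26, 0.03 and 0.13.

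The symbol Mrps18 covers 3 homologs of bacterial S18, which occupy different places. Mrps18c sits where S18 does in the small subunit, and had 141 and 171 CPM in IQ3pos and 53.7 and 47.2 CPM in IQ3neg. Mrps18b, elsewhere in the small subunit, had 26.8 and 30.8 CPM in IQ3pos and 4.67 and 10.8 CPM in IQ3neg. Mrps18a, which despite its symbol belongs to the large subunit, had 96.2 and 114 CPM in IQ3pos and 51.2 and 48.3 CPM in IQ3neg. All of them were higher in both IQ3pos libraries on both scales, by 1.60, 1.86 and 1.06 on log2(CPM + 1) and by 0.85, 1.16 and 0.30 on the TMM scale. Whether these differences differ from each other was not tested.

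Further symbols do not match the place of their protein. Mrps30, a large-subunit protein, had 69.9 and 64.4 CPM in IQ3pos and 17.4 and 18.7 CPM in IQ3neg, with no overlap and a difference of 1.84 ± 0.44 (SE, limma adjusted p = 0.0933). Mrps36, now known as a component of the 2-oxoglutarate dehydrogenase complex, had 21.8 and 26.2 CPM in IQ3pos and 9.48 and 11.4 CPM in IQ3neg, a difference of 1.13 ± 0.61 (SE, limma adjusted p = 0.327). On the TMM scale the differences were 1.10 for Mrps30 and 0.41 for Mrps36.

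In the large subunit, 46 of the 50 tested members were higher in both IQ3pos libraries on CPM and 38 on TMM-scaled CPM. Among all tested genes 40.9% and 24.7% were higher in this way. The median difference of the 50 members was 1.55 and 0.80. Mrpl42, a protein specific to the mitochondrial ribosome, was the most abundant member of all. It had 1211 and 1085 CPM in IQ3pos and 279 and 240 CPM in IQ3neg, a difference of 2.14 ± 0.25 (SE) with the lowest adjusted p of any member (limma adjusted p = 0.0605), and 1.38 on the TMM scale. It alone held 15.2% and 12.5% of the summed level in IQ3pos and 11.2% and 8.75% in IQ3neg, and without it the median difference of the other members was 1.57.

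Mrpl12, the stalk protein, which has also been found bound to the mitochondrial RNA polymerase, had 65.1 and 91.2 CPM in IQ3pos and 7.83 and 15.2 CPM in IQ3neg. Mrpl10, which anchors that stalk, had 20.6 and 44.1 CPM in IQ3pos and 0.965 and 15.2 CPM in IQ3neg. Both genes were lowest in IQ3neg_1909B, and Mrpl10 overlapped between the fractions after TMM scaling. Their differences were 2.71 ± 0.55 for Mrpl12 (SE, limma adjusted p = 0.0746) and 2.47 ± 1.17 for Mrpl10 (SE, limma adjusted p = 0.273), and 1.98 and 1.85 on the TMM scale.

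Mrpl21, a homolog of bacterial L21, had 123 and 143 CPM in IQ3pos and 13.8 and 34.1 CPM in IQ3neg. Mrpl34, a homolog of bacterial L34, had 55.5 and 62.0 CPM in IQ3pos and 9.11 and 14.4 CPM in IQ3neg. Mrpl45, which lies at the exit of the peptide tunnel on the side of the inner membrane, had 210 and 218 CPM in IQ3pos and 49.1 and 51.0 CPM in IQ3neg. None of them overlapped between the fractions, and the differences were 2.55, 2.26 and 2.07 on log2(CPM + 1) and 1.80, 1.53 and 1.32 on the TMM scale.

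Mrpl28 and Mrpl27, homologs of bacterial L28 and L27, were abundant. Mrpl28 had 260 and 334 CPM in IQ3pos and 70.4 and 112 CPM in IQ3neg, and Mrpl27 had 259 and 206 CPM in IQ3pos and 86.2 and 74.9 CPM in IQ3neg. Mrpl37 had 196 and 236 CPM in IQ3pos and 32.1 and 84.8 CPM in IQ3neg, and Mrpl51 had 163 and 198 CPM in IQ3pos and 76.8 and 59.3 CPM in IQ3neg. All of them were higher in both IQ3pos libraries on both scales, by 1.72, 1.51, 2.02 and 1.40 on log2(CPM + 1) and by 0.95, 0.75, 1.26 and 0.64 on the TMM scale, in the order named.

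Among the 8 members of smallest difference, those of the large subunit all had more in IQ3pos_1910A than in IQ3pos_1909A. Mrpl9, a homolog of bacterial L9, had 9.46 and 50.1 CPM in IQ3pos and 20.7 and 15.7 CPM in IQ3neg. Mrpl3, a homolog of bacterial L3, had 6.31 and 47.2 CPM in IQ3pos and 6.74 and 12.4 CPM in IQ3neg. Mrpl16, a homolog of bacterial L16, had 23.1 and 47.7 CPM in IQ3pos and 19.2 and 23.7 CPM in IQ3neg. The fractions of these genes overlapped, with differences of 0.28, 0.88 and 0.62 on log2(CPM + 1) and -0.45, 0.18 and -0.12 on the TMM scale.

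Mrpl41 had 46.6 and 53.2 CPM in IQ3pos and 33.7 and 29.2 CPM in IQ3neg. Mrpl38 had 28.2 and 43.4 CPM in IQ3pos and 27.6 and 24.4 CPM in IQ3neg. Both were higher in both IQ3pos libraries on CPM, by 0.65 and 0.42, and the sign turned on the TMM scale, with -0.10 and -0.32.

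Mrpl53 was listed at 0 in all 4 libraries and was not tested. In GENCODE vM21, 695 of its 790 exonic bases overlap Gm42688 on the same strand, which was also listed at 0.

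Per length of exon, members spanned a wide range of levels. The mean over the 4 libraries was 191 CPM per kb of exon for Mrpl42, 159 for Mrpl27 and 141 for Mrpl28, against a median of 18.8 CPM per kb over members. The lowest detected levels were 2.15 CPM per kb for Mrps35, 2.59 for Mrps5 and 2.73 for Mrpl3. Exon lengths here are of all annotated transcripts together, which lowers the value of genes with long, rarely used exons.

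The pools of mice gave like medians and a different order of genes. Libraries of the same number were set against each other here, although the labels do not say that they share mice. Within the pools of 3 mice (IQ3pos_1909A and IQ3neg_1909B) the median difference of the 77 members was 1.54 on log2(CPM + 1), against 0.72 for all tested genes, and within the pools of 4 mice it was 1.48, against 0.57. On TMM-scaled CPM the member medians were 0.68 and 0.84. In both pools 65 members stood above the median of all genes, and the share of all tested genes that did so was not counted. Mrpl9, Mrpl3 and Mrps11 were lower in IQ3pos in the pools of 3 mice, and 0 members were lower in the pools of 4. The shares of all tested genes lower in each pool were not counted either.

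How far a given member differed in one pool said little about the other. Across the 77 members Spearman's rho between the pools was 0.06 and Pearson's r was 0.02, over genes that share libraries and are not independent replicates. The SD of member differences was 0.84 in the pools of 3 mice and 0.50 in the pools of 4. These values, and the count of members that follows, were not set beside those of all tested genes. The differences of 19 members were more than 1 apart on the log2 scale, with 12 of them larger in the pools of 3 mice and 7 larger in the pools of 4. Among them, Mrpl44 had 70.7 and 26.3 CPM in IQ3pos and 10.2 and 16.4 CPM in IQ3neg, and Mrps31 had 39.1 and 99.0 CPM in IQ3pos and 20.5 and 12.9 CPM in IQ3neg. Mrpl44 thus differed more in the pools of 3 mice and Mrps31 in the pools of 4, and both were chosen after their values were seen.

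**Figure D3:**
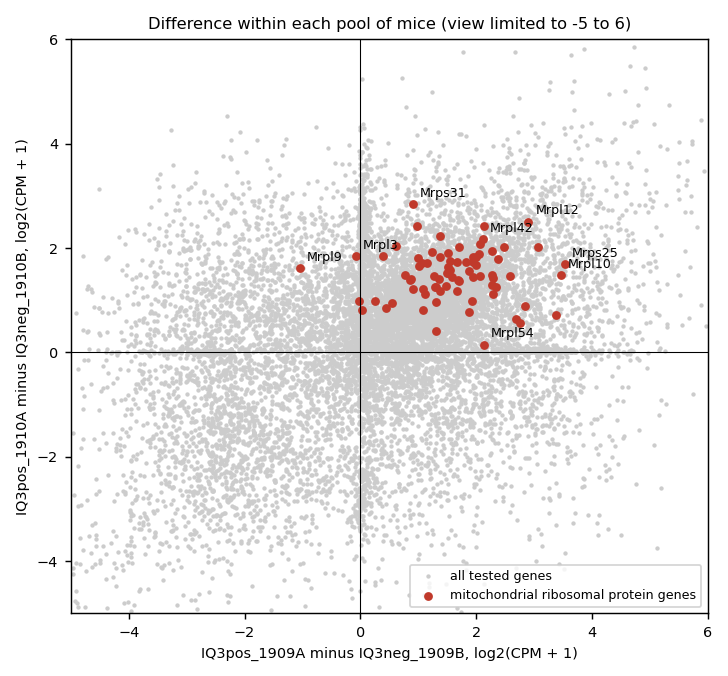
Difference of each gene between the pools of 3 mice (x axis, IQ3pos_1909A minus IQ3neg_1909B) and between the pools of 4 mice (y axis, IQ3pos_1910A minus IQ3neg_1910B), on log2(CPM + 1). The labels do not say that libraries of the same number share mice. Grey points are all tested genes and red points the 77 members, of which a few are named. The members gather in the upper right, apart from Mrpl9, Mrpl3 and Mrps11 left of 0, and show no slope (Spearman's rho 0.06).

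The level of mitochondrial ribosomal protein transcripts was set beside that of related gene groups. Their sum equalled 24.6% and 30.1% of the summed CPM of nuclear respiratory chain and ATP synthase genes in IQ3pos, against 26.5% and 25.5% in IQ3neg. It equalled 44.4% and 48.8% of the sum of cytosolic ribosomal protein genes in IQ3pos, against 48.6% and 49.0% in IQ3neg. In the ratio to respiratory chain genes the IQ3neg libraries lay between the IQ3pos ones, and in the ratio to cytosolic ribosomal proteins IQ3pos_1910A lay close to both IQ3neg libraries.

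Gene by gene, 73 of 75 respiratory chain and ATP synthase genes were higher in both IQ3pos libraries on CPM and 65 on TMM-scaled CPM. Their median was 1.58 and 0.82. Among all tested genes 40.9% were higher in this way on CPM and 24.7% on TMM-scaled CPM. Uqcrc1, a core protein of complex III, had 1778 and 1986 CPM in IQ3pos and 384 and 626 CPM in IQ3neg. Sdhb, the iron-sulfur subunit of complex II, had 1242 and 1203 CPM in IQ3pos and 322 and 360 CPM in IQ3neg. Of 78 cytosolic ribosomal protein genes, 78 were higher in both on CPM and 71 on TMM-scaled CPM, with a median of 1.75 and 0.99. Rpl4 had 1104 and 1086 CPM in IQ3pos and 310 and 330 CPM in IQ3neg, and Rps3 had 791 and 712 CPM in IQ3pos and 187 and 239 CPM in IQ3neg. The mitochondrial ribosomal proteins, at 1.57 and 0.81, lay close to both lists, and no difference between the lists was tested.

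Mitoribosomal proteins with other symbols had a median of 1.53 over 5 genes. On CPM 4 were higher in both IQ3pos libraries, against 40.9% of all tested genes. Ptcd3, a small-subunit protein, had 205 and 284 CPM in IQ3pos and 66.1 and 63.3 CPM in IQ3neg. Aurkaip1, also in the small subunit, had 96.5 and 145 CPM in IQ3pos and 36.1 and 54.4 CPM in IQ3neg. Dap3, a GTP-binding small-subunit protein and the one of the 5 that overlapped, had 22.3 and 57.7 CPM in IQ3pos and 28.8 and 17.2 CPM in IQ3neg. It is named after its values were seen.

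Factors that build and serve the mitochondrial ribosome included genes in both directions. Of 26 assembly and rRNA modification genes, 13 were higher and 2 lower in both IQ3pos libraries on CPM. On TMM-scaled CPM 8 were higher and 3 lower. Among all tested genes the shares were 40.9% and 14.2% on CPM and 24.7% and 23.0% on TMM-scaled CPM. The list had a median of 1.18 on log2(CPM + 1) and 0.46 on the TMM scale. Fastkd2, an RNA-binding assembly factor, had 108 and 92.5 CPM in IQ3pos and 12.1 and 23.5 CPM in IQ3neg. Mterf3, a factor needed for ribosome assembly, had 44.4 and 47.6 CPM in IQ3pos and 11.8 and 12.8 CPM in IQ3neg. The genes lower in both on CPM, named after their values were seen, were Trub2, with 1.48 and 3.10 CPM in IQ3pos and 7.24 and 5.45 CPM in IQ3neg, and Noa1, with 0.110 and 0.0681 CPM in IQ3pos and 2.59 and 1.89 CPM in IQ3neg.

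Of 16 translation factor genes, 9 were higher in both on CPM and 3 on TMM-scaled CPM, against 40.9% and 24.7% of all tested genes. Their median was 0.86 and 0.13. Lrpprc, which stabilises mitochondrial messenger RNAs, had 92.1 and 92.8 CPM in IQ3pos and 28.0 and 40.6 CPM in IQ3neg. Letm1, a protein of the inner membrane, had 32.4 and 43.5 CPM in IQ3pos and 13.4 and 34.8 CPM in IQ3neg, with overlap. Of 19 mitochondrial aminoacyl-tRNA synthetase genes, 13 were higher in both on CPM and 7 on TMM-scaled CPM, against the same shares. Their median was 1.11 and 0.39. Rars2, the arginine enzyme, had 255 and 142 CPM in IQ3pos and 79.6 and 72.6 CPM in IQ3neg, and Lars2, the leucine enzyme, had 46.7 and 36.5 CPM in IQ3pos and 24.1 and 32.9 CPM in IQ3neg.

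Of 17 genes for transcription and upkeep of mitochondrial DNA, 12 were higher and 2 lower in both on CPM. On TMM-scaled CPM 7 were higher and 3 lower. Among all tested genes the shares were 40.9% and 14.2% on CPM and 24.7% and 23.0% on TMM-scaled CPM. The list had a median of 1.46 and 0.75. Hsd17b10, a subunit of mitochondrial RNase P, had 489 and 352 CPM in IQ3pos and 107 and 119 CPM in IQ3neg. Ssbp1, which binds single-stranded mitochondrial DNA, had 101 and 121 CPM in IQ3pos and 62.9 and 67.3 CPM in IQ3neg. Both were higher in both IQ3pos libraries on CPM. On the TMM scale Hsd17b10 differed by 1.11, whereas the fractions of Ssbp1 overlapped, with a difference of 0.00 and a limma adjusted p of 0.998. The genes lower in both on CPM were Twnk, given below, and Mterf2, with 1.64 and 2.56 CPM in IQ3pos and 7.01 and 2.57 CPM in IQ3neg.

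The RNAs that mitochondrial DNA itself encodes overlapped between the fractions for most genes. Of 12 tested messenger RNAs, 4 were higher in both IQ3pos libraries on CPM and 0 on TMM-scaled CPM. On either scale 0 were lower in both. Among all tested genes 40.9% were higher and 14.2% lower in both on CPM, and 24.7% and 23.0% on TMM-scaled CPM. Whether these RNAs overlapped more often than other genes was not tested. The median of these messenger RNAs was 0.78 and 0.06. Their summed level was 115000 and 80860 CPM in IQ3pos, against 76650 and 28420 CPM in IQ3neg. mt-Cytb, for cytochrome b, had 88980 and 65050 CPM in IQ3pos and 55460 and 21280 CPM in IQ3neg, and mt-Co1, for a catalytic subunit of complex IV, had 12810 and 7461 CPM in IQ3pos and 10830 and 3371 CPM in IQ3neg. In each fraction both were higher in the pool of 3 mice than in the pool of 4.

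The ribosomal RNAs with which these proteins assemble had overlapping fractions. mt-Rnr2, of the large subunit, had 2214 and 615 CPM in IQ3pos and 4366 and 346 CPM in IQ3neg. mt-Rnr1, of the small subunit, had 548 and 209 CPM in IQ3pos and 1001 and 80.5 CPM in IQ3neg. In both fractions the pools of 3 mice were high and the pools of 4 low, and within the pools of 3 mice IQ3neg was the higher one. SMART-Seq2 primes on poly(A) tails, and how far it captured these ribosomal RNAs was not tested.

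**Figure D4:**
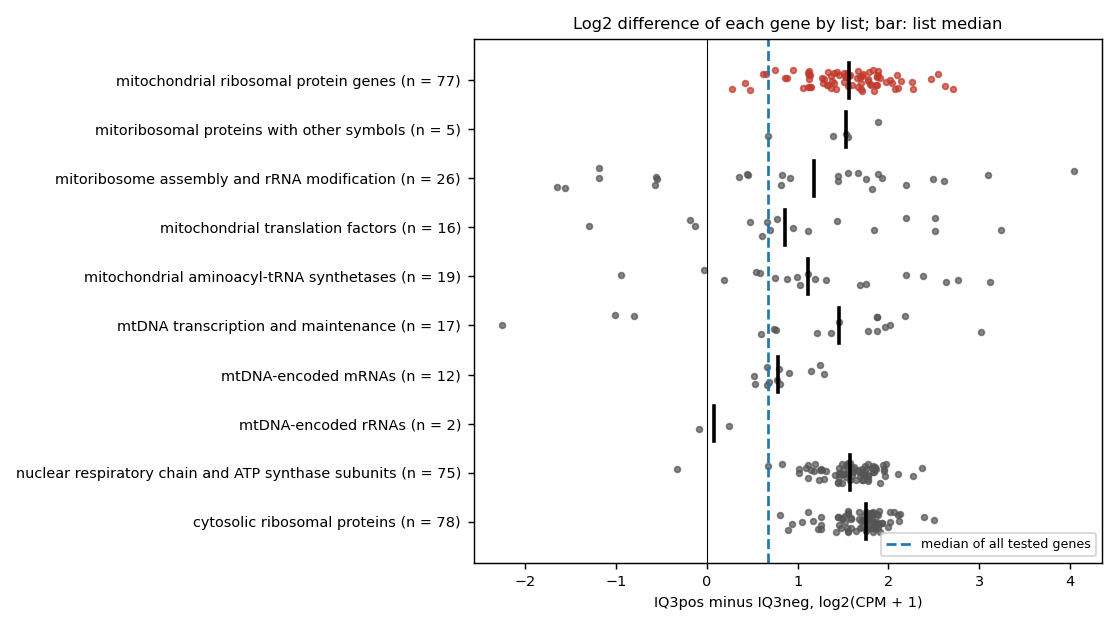
Difference between IQ3pos and IQ3neg for each tested gene of 10 lists, on log2(CPM + 1). Each point is a gene, black bars are list medians, the dashed line is the median of all tested genes (0.68) and red points are the mitochondrial ribosomal protein genes. The red points, the respiratory chain genes and the cytosolic ribosomal protein genes lie almost wholly right of the dashed line, and the 5 mitoribosomal proteins with other symbols run from 0.67 to 1.88. The assembly, translation factor, synthetase and mitochondrial DNA maintenance lists reach below 0. The respiratory chain list (lowest -0.33) and the mitochondrial ribosomal RNAs (lowest -0.08) also do.

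Markers of corpus cell types moved with the fractions. Their counts on CPM stand beside 40.9% of all tested genes higher and 14.2% lower in both IQ3pos libraries. Summed parietal cell markers were 8491 and 8028 CPM in IQ3pos and 894 and 1570 CPM in IQ3neg, with 10 of 12 tested markers higher in both IQ3pos libraries. Summed markers of dividing cells were 1254 and 3087 CPM in IQ3pos and 90.1 and 234 CPM in IQ3neg, with 10 of 10 higher. Chief cell markers summed to 51080 and 19720 CPM in IQ3pos and 415900 and 404500 CPM in IQ3neg, with 7 of 9 lower in both.

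Markers of the endocrine cells and of the mucous cells of the surface and neck are given next. The shares of all tested genes on CPM are those just given, and on TMM-scaled CPM 24.7% were higher and 23.0% lower. Enteroendocrine cell markers were 385 and 204 CPM in IQ3pos and 16540 and 11000 CPM in IQ3neg, with 8 of 9 lower. Pit cell markers summed to 15060 and 15530 CPM in IQ3pos and 8527 and 10260 CPM in IQ3neg. Of these 7 markers, 6 were higher and 1 lower in both IQ3pos libraries. On TMM-scaled CPM 6 were again higher and 1 lower, with a median difference of 2.30. The sums on that scale were 11950 and 11490 in IQ3pos and 12410 and 11990 in IQ3neg. The direction of the sum thus turned, whereas that of most markers did not. Mucous neck cell markers summed to 5175 and 8647 CPM in IQ3pos and 1181 and 2168 CPM in IQ3neg, with 1 of 3 tested markers (Tff2) higher in both. On TMM-scaled CPM 1 of the 3 was higher in both and 1 (Muc6) lower. The sums of parietal, dividing, chief, enteroendocrine and mucous neck cell markers kept their direction after TMM scaling. For the remaining lists the summed CPM overlapped between the fractions. Tuft cell markers summed to 554 and 130 CPM in IQ3pos and 370 and 1112 CPM in IQ3neg. Of the 5 tuft markers, 1 was lower in both on CPM and 4 on TMM-scaled CPM, and 0 were higher. Immune cell markers summed to 293 and 66.8 CPM in IQ3pos and 379 and 74.4 CPM in IQ3neg. Stromal and endothelial markers summed to 2.01 and 0.355 CPM in IQ3pos and 28.5 and 1.52 CPM in IQ3neg, and red blood cell markers to 3.35 and 0.423 CPM in IQ3pos and 13.9 and 3.19 CPM in IQ3neg. Of all these markers, 0 were at 0 in all 4 libraries. The part of these cell types in the values of mitochondrial ribosomal protein genes was not tested.

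The members lie on 17 chromosomes, with 11 genes on chromosome 11 and 8 on chromosome 17. A head-to-head neighbour here is a protein-coding gene on the other strand that starts at most 1000 bases upstream and runs the other way. It was present for 18 of 78 members (23.1%), against 6.8% of all protein-coding genes. Pairs whose 5′ ends overlap, such as Mrpl46 and Mrps11, were not counted. Of 16 tested neighbours, 5 were higher and 2 lower in both IQ3pos libraries, against 40.9% and 14.2% of all tested genes. Their median difference was 0.86, against 0.68 for all tested genes, and the 16 members beside them had a median of 1.63. No difference between neighbours and members was tested.

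Some such pairs went in opposite directions. Mrpl50 had a difference of 1.77 (1.01 on the TMM scale), and its neighbour Zfp189, a zinc finger gene 83 bases away, had 0 and 0.0143 CPM in IQ3pos and 8.09 and 10.7 CPM in IQ3neg. Mrpl37 had a difference of 2.02 (1.26 on the TMM scale), and its neighbour Cyb5rl had 0.176 and 0.151 CPM in IQ3pos and 3.86 and 3.85 CPM in IQ3neg. Other pairs went the same way. Mrpl51 had a difference of 1.40 (0.64 on the TMM scale), and its neighbour Ncapd2, a condensin subunit, had 22.6 and 27.6 CPM in IQ3pos and 0.0174 and 7.14 CPM in IQ3neg.

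An exon of another gene overlaps 33 of the 78 members, on the same strand for 8 and on the opposite strand only for 25. The strand setting of the counting is not given in the sources used here, so reads from such genes may be shared. The largest such overlap among the named members was that of Mrps25, of which 4590 of 6576 exonic bases lie opposite Nr2c2, a nuclear receptor gene with 22.5 and 14.7 CPM in IQ3pos and 13.4 and 5.58 CPM in IQ3neg. Mrpl43 shares 507 bases with Twnk, the gene of the mitochondrial DNA helicase on the opposite strand, which had 0.0661 and 0.874 CPM in IQ3pos and 6.89 and 4.77 CPM in IQ3neg. Among the 45 tested members without an overlap, the median was 0.86 above that of all tested genes.

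Promoters of the members carried some short motifs more often than promoters in general. RefSeq gave 75 promoters for 69 of the 78 members, each from 250 bases before to 50 after the start, and 7 exact motifs were searched on both strands. CCGGAAG, the core of ETS sites, was in 34.7% of member promoters, 11.6% of those of protein-coding genes and 8.9% of all promoters. AAGATGGC, of YY1, was in 16.0% of member promoters and 3.1% of protein-coding ones. CATGCGC, from sites of NRF1, was in 10.7% and 4.8%. No letter of one of these motifs was shared with a match to another in the stretches printed above.

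Other motifs differed less. GGGCGG, of SP1, was in 52.0% of member promoters and 46.2% of those of protein-coding genes, CCAAT, of NF-Y, in 40.0% and 38.2%, and CACGTG, an E-box, in 9.3% and 7.8%. TATAAA, the TATA box, was in 6.7% and 12.6%. Member promoters had a median GC content of 58.7% and 21 CpG per 300 bases, against 56.3% and 13 for promoters of protein-coding genes. These matches are descriptions of letters, not of bound sites.

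**Figure D5:**
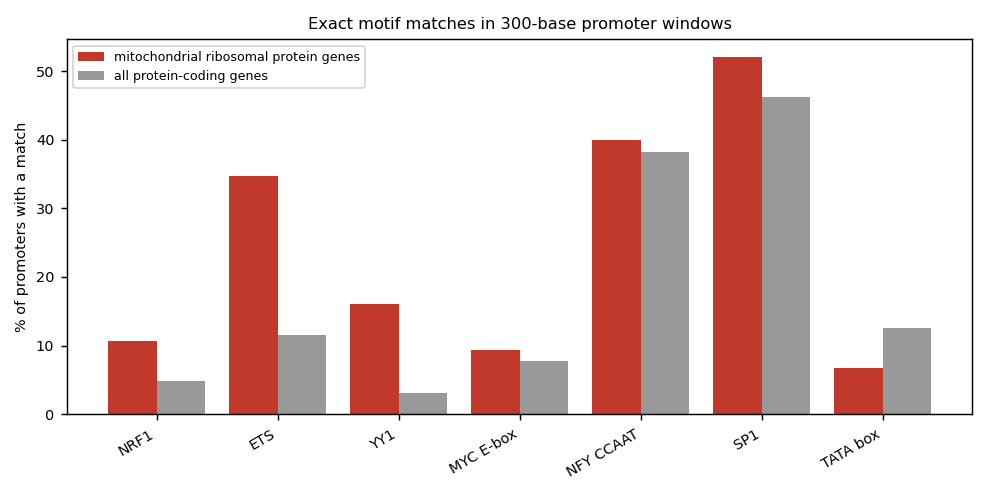
Share of 300-base promoter windows with an exact match on either strand, for 75 promoters of mitochondrial ribosomal protein genes (red) and 21263 promoters of protein-coding genes (grey), by motif. The red bar is taller than the grey one for ETS (34.7% and 11.6%) and YY1 (16.0% and 3.1%) and shorter for the TATA box (6.7% and 12.6%).

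ETS and YY1 matches lay mostly close to the start. Of 31 ETS matches, 22 were within 50 bases of the start, as in Mrps22, Mrpl34 and Mrpl58 above. Of 12 YY1 matches, 8 lay after the start, all of them on the strand of the gene, as in Mrpl42. Of 16 NRF1 matches, in 8 genes, 8 were within 50 bases of the start.

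Members were also split by motif. The median difference on log2(CPM + 1) was 1.40 in 25 tested members with an ETS match and 1.67 in 43 without, and 1.40 in 12 members with a YY1 match and 1.63 in 56 without. With an NRF1 match it was 1.32 in 8 members, Mrpl9 among them, and 1.63 in 60 without. The median of all tested genes on this scale was 0.68. These are medians of single genes, given without a test.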

How the data were processed

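The table deposited by the authors holds CPM, reads per 1000000 in genes, for each symbol and library. STAR 2.7.1a, featureCounts, Subread 2.0.0 and edgeR were used with GRCm38/mm10, per the submitters' processing notes. Annotation, strand setting and multi-mapped read handling, not given in the sources used here, could move reads between overlapping genes. Every column sums to 1000000, so no composition factor is in it. All values above 0 (100%) were within 0.05 of a whole multiple of a single read, which gave back the reads, 90714929 and 279125309 in IQ3pos_1909A and IQ3pos_1910A and 115016307 and 418401262 in IQ3neg_1909B and IQ3neg_1910B.

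All 13019 genes averaging 1 CPM or more were tested on log2(CPM + 1) with limma-trend (limma 3.58.1, R 4.3.3), two-sided, without a block, with Benjamini-Hochberg adjustment at 0.05. A fold on this scale understates the change of low genes. Alternatives were other pseudocounts, filters and scalings, TMM among them, each library left out, a block for the library number, and edgeR 4.0.16 and DESeq2 1.42.0 on the recovered reads. The scripts were tested on simulated data. Reads carry no molecular identifiers, so depth covers counting error only.

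The members, lists and tests were chosen with earlier results of these data known. Named members are the 8 most abundant, the 8 of largest and the 8 of smallest difference among those of at least 10 CPM, Mrps18a, Mrps18b, Mrps18c, Mrps30, Mrps36 and the untested Mrpl53, and from each related list the 2 of highest mean CPM. Others were chosen after their values were seen. Small- and large-subunit membership by structure is background knowledge. Coordinates and exons are from GENCODE vM21 on GRCm38, the build of the files, and promoters from RefSeq on GRCm38.p6. A list gene on 2 rows, Atp5o, was left out.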

Additional observations from a re-analysis of the deposited data

How the results depend on the processing

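In no setting was the median of the members below that of all tested genes. Relative to all tested genes it was 0.90 in the main test, 1.56 without a filter, where genes near 0 enter, 0.71 with genes of at least 5 CPM, 0.71 with edgeR and 0.69 with DESeq2, and 0.83 to 0.92 with a library left out. The count of members higher in both IQ3pos libraries was 71, 57 with TMM scaling, 54 with DESeq2's scaling and 45 without the 20 most abundant genes. The shares of all tested genes were 40.9%, 24.7% with TMM scaling and 19.3% without the 20 most abundant genes. For DESeq2's scaling the share was not counted, so the 54 has nothing to be read against. With a library left out 71 to 77 members were higher, but leaving out a library cannot lower this count. The share of all tested genes was 60.0% without IQ3pos_1909A and was not counted for the other libraries. The number of calls depended on the setting. Over all tested genes 0 were called in the main test, 293 with a pseudocount of 5, 782 with genes of at least 5 CPM, 30 with TMM scaling, 49 with DESeq2's scaling, 11 without the 20 most abundant genes, 45 with edgeR and 1791 with DESeq2. Of members 0 were called in the main test, 4 with a pseudocount of 5 (Mrpl42, Mrpl45, Mrps14 and Mrps10; 1.84% of genes called higher), 16 with genes of at least 5 CPM (7.83%), 7 with DESeq2 (5.45%), and 0 with a library left out. All of these stood higher in IQ3pos. With fewer genes tested the adjustment is milder. For the other settings the cause was not tested.

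With a replicate block 1341 genes and 29 members were called (9.34% of genes called higher), and with a replicate block and TMM scaling 397 genes and 1 member, Mrpl42 (1.86%). The labels do not say that a number marks the same mice, so the main test used no pairing. Deviations of same-numbered libraries correlated at 0.148, which cannot decide this with so few libraries. Differences between same-numbered libraries are given above as description only.

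Signs turned for members of small difference. With TMM, DESeq2's scaling, removal of the 20 most abundant genes, block with TMM, edgeR and DESeq2, in that order, Mrpl41 had -0.10, -0.10, -0.32, -0.10, -0.15 and -0.14, Mrpl9 had -0.45, -0.45, -0.68, -0.45, -0.08 and -0.17, Mrps11 had -0.26, -0.26, -0.48, -0.26, -0.23 and -0.24, Mrpl38 had -0.32, -0.32, -0.55, -0.32, -0.35 and -0.35, and Mrpl16 had -0.12, -0.12, -0.34, -0.12, -0.08 and -0.07. Removal of the 20 most abundant genes also gave -0.19 for Mrps35, -0.04 for Mrpl3 and -0.08 for Mrps23, and leaving out a library gave -0.86 to 1.43 for Mrpl9 and -0.48 to 2.24 for Mrpl3, the lowest without IQ3pos_1910A. The lowest count of a tested member in a library was 111 reads.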

Other observations

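Pseudogenes named after members were not among them. Mrpl23-ps1 had 4.56 and 5.85 CPM in IQ3pos and 1.03 and 2.37 CPM in IQ3neg, and Mrpl48-ps had 0.805 and 0.820 CPM in IQ3pos and 0.313 and 0.282 CPM in IQ3neg. Reads may be shared with the genes they resemble. Mrps36-ps3 was listed at 0 in all 4 libraries.

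Mterf4, an assembly factor that works together with the rRNA methyltransferase Nsun4, had 20.7 and 22.6 CPM in IQ3pos and 0 and 0.899 CPM in IQ3neg. Nsun4 had 0.0882 and 30.4 CPM in IQ3pos and 2.64 and 19.4 CPM in IQ3neg, so its fractions overlapped. Both were chosen after their values were seen.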
